A study of Mus musculus with 15 samples.

Results

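Hepatic stellate cells and the collagen matrix of the liver were followed through 10 named genes: the fibrillar collagen chains Col1a1, Col1a2 and Col3a1, the fibril-associated collagen Col14a1, the basement membrane collagen Col4a1, the matrix proteoglycan Dcn, the stellate cell genes Lrat, Reln and Des, and the protease inhibitor Timp1. The members were found by gene name in the count table, which lists 35275 genes, and all 10 were found. Of these, 9 passed the filter on low counts and stood among the 13837 genes tested; Timp1 did not pass. The libraries are bulk RNA-seq of the left lateral liver lobe of C57BL/6 mice, 3 months old when the feeding regimens began and 6 months old after 3 months on them. The EOD group fasted every other day for 24 hours, the IF16 group fasted for 16 hours, and the AL group ate ad libitum, with 5 libraries each. No transgene or drug is named, and neither the hour of collection nor the time since the last meal is known here. Whether every library came from its own mouse is not stated, so the p-values cover only the spread among these libraries, some of which may be technical.

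Stellate cells lie between the sinusoidal endothelium and the hepatocytes and hold most of the body's vitamin A as retinyl esters, which lecithin retinol acyltransferase, the product of Lrat, makes. On injury they lose these stores and become myofibroblasts, which lay down type I and type III collagen. In the resting liver, type IV collagen forms a loose basement membrane along the sinusoids, and portal fibroblasts and vascular smooth muscle around the portal tracts make matrix too. Because each library is a whole piece of liver, fewer cells of a type and less RNA per cell cannot be told apart in any value given here.

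Library totals were 29581097 to 37802749 counts in EOD, 31362642 to 38147534 in IF16 and 28129883 to 33383641 in AL. Levels below are CPM (counts scaled to the TMM-adjusted library size), and 3 counts, the floor of detection, correspond to 0.078 to 0.107 CPM. AL replicates 4 and 5 stood apart from the other libraries: their summed acute phase genes reached 41300 and 59000 CPM, against 11700 to 21300 CPM in the other 13 libraries. Neutrophil markers in them summed to 28.2 and 26.6 CPM, against 1.12 to 3.84 CPM elsewhere. Both libraries carry the AL label and stay in the AL group, and member results that rest on them are given with and without them, as are the named list genes that lost the call or moved by more than 1.5 times without them. IF16 and EOD were each set against the same 5 AL libraries, so those comparisons are not independent of each other.

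The regulatory starts of 3 members are shown because Col1a2 and Col3a1 had the same high and low AL libraries, and because Reln rose in EOD relative to AL. They are RefSeq promoter windows of build GRCm38.p6, each running from 250 bases before to 50 bases after the gene's start, written 5′ to 3′ on the gene's strand. Capitals mark TATAAA (the TATA box core), CCAAT (the CCAAT box) or GGGCGG (the GC box core) on either strand. The Col1a2 window is chr6:4505368-4505667, plus strand. The Col3a1 window is chr1:45311288-45311587, plus strand. The Reln window is chr5:22344656-22344955, minus strand.
Col1a2: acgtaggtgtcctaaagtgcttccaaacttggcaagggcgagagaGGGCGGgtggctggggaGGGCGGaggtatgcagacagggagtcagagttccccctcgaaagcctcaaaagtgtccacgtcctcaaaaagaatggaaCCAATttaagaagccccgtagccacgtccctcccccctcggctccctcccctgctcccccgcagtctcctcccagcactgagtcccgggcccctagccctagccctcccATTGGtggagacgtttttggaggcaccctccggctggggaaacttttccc
Col3a1: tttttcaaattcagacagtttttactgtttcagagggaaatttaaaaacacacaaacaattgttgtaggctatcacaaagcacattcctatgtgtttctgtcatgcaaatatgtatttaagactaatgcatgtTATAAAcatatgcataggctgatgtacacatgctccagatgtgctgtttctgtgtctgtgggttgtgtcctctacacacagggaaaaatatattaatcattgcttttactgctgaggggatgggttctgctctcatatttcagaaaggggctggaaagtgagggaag
Reln: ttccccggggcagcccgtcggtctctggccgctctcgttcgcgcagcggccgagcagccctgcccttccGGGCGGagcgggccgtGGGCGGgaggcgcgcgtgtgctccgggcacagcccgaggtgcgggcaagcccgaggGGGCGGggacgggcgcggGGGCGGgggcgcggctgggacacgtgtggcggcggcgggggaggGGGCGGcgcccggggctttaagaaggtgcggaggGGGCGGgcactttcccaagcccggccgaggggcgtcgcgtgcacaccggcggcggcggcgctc
The Col1a2 window held CCAAT 2 times and GGGCGG 2 times, the Col3a1 window held TATAAA 1 time, and the Reln window held GGGCGG 6 times. The Col3a1 TATAAA lay 117 bases before the start, and the Col1a2 CCAAT on the opposite strand began at the start itself. These are matches of sequence alone, and whether any of them works as a promoter element was not tested. Their GC contents were 61.0% for Col1a2, 37.7% for Col3a1 and 80.7% for Reln. Across 32851 promoter windows of the same length, TATAAA was present at least 1 time in 13.6%, CCAAT in 37.4% and GGGCGG in 35.7%. How many of these windows held a motif several times was not counted. The tables held a window for 7 of the 10 members. The start of Col1a2 in RefSeq lies downstream of the start in the deposited annotation.

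Levels per length, in the deposited FPKM (fragments scaled to gene length and library size), placed Dcn far above the other members. Its mean over the 15 libraries was 60 FPKM, with a range of 34.6 to 96.7 FPKM. Decorin, its product, is a small leucine-rich proteoglycan that binds collagen fibrils and transforming growth factor beta. Col14a1 came next with a mean of 4.74 FPKM and a range of 3.19 to 6.58 FPKM, so that no library brought the ranges of Dcn and Col14a1 together. Col3a1 (mean 2.73 FPKM), Col4a1 (2.4 FPKM), Reln (2 FPKM), Lrat (1.87 FPKM), Col1a2 (1.67 FPKM), Des (1.63 FPKM) and Col1a1 (0.697 FPKM) followed in that order of means, and the range of each overlapped that of the next over the 15 libraries. Timp1 was lowest, with a mean of 0.162 FPKM, and its highest library, 0.362 FPKM, lay under the lowest Col1a1 library, 0.371 FPKM.

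**Figure D1:**
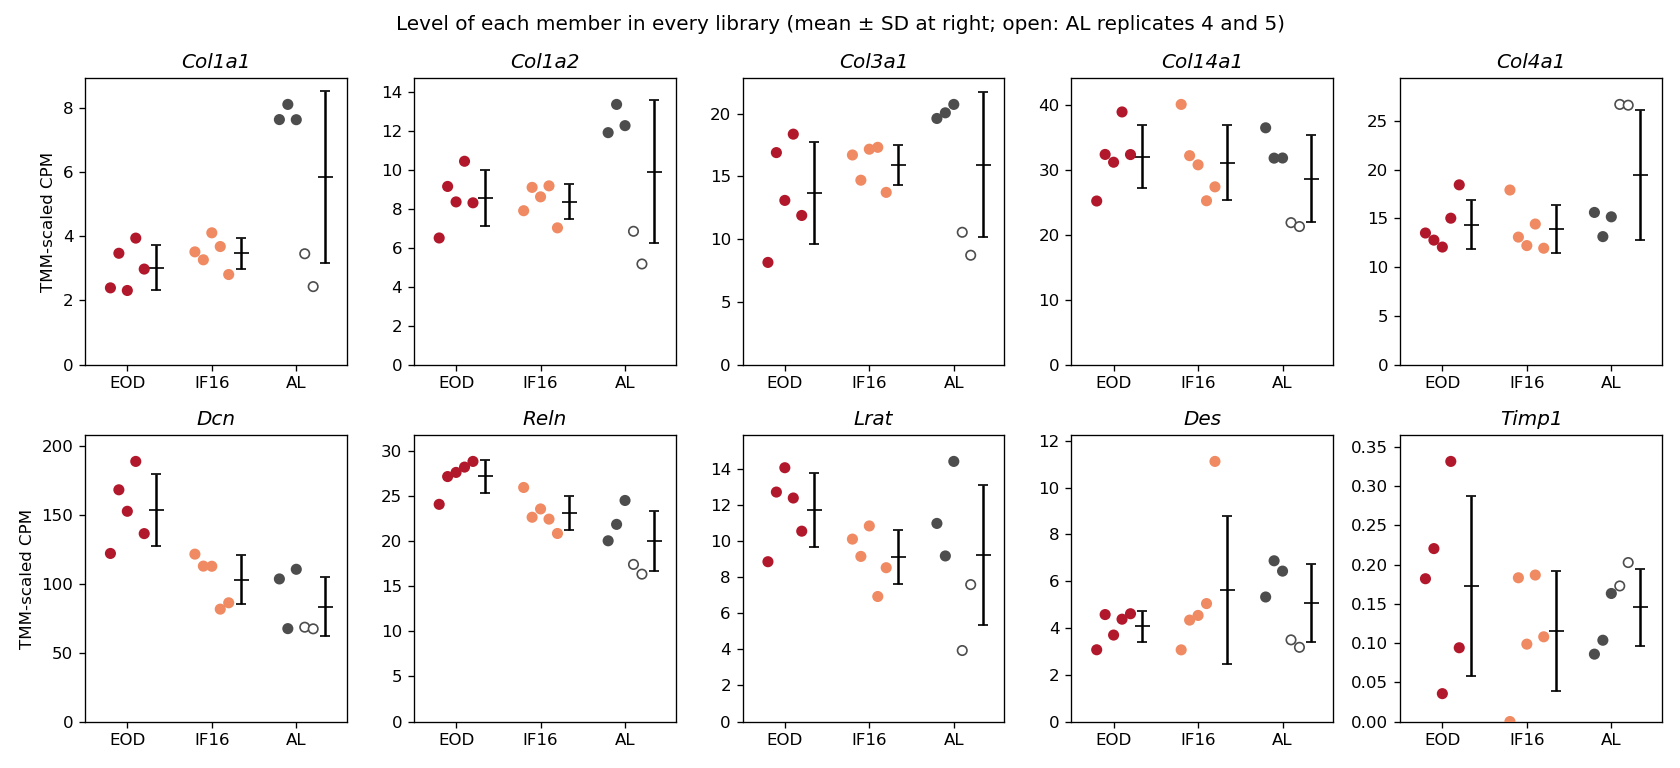
TMM-scaled CPM of each of the 10 members (1 panel a gene, each axis from 0), with 1 point per library in EOD, IF16 and AL and the group mean ± SD (n = 5) at the right of each group. Open points are AL replicates 4 and 5, which sit below AL replicates 1 to 3 in 7 of the 9 tested members and above them for Col4a1. The share of all tested genes so placed was not counted.

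Between EOD and AL, 3 of the 9 tested members changed: Dcn and Reln rose and Col1a1 fell (edgeR's quasi-likelihood test, Benjamini-Hochberg adjustment over 13837 genes). In this comparison 35.2% of all tested genes were called, 17.6% higher and 17.6% lower, so 3 of 9 is close to the background and is not a result about the members as a group. Between EOD and IF16, 1 of 9 members, Dcn, was called and was higher in EOD, where 16.1% of all tested genes were called and 7.96% were called higher. Between IF16 and AL, 0 of 9 members were called by edgeR's quasi-likelihood test and 0 by DESeq2, with 2 at an unadjusted p under 0.05, where 3.5% of all tested genes were called, 1.4% higher and 2.1% lower. For EOD over IF16, 8.15% of all tested genes were called lower. Between IF16 and AL, 0 of 9 members had groups that did not overlap, against 5.78% of all tested genes. The median log2 fold change of the 9 members was -0.22 for EOD over AL, 0.04 for EOD over IF16 and 0 for IF16 over AL, beside medians of -0.01, 0 and 0 over all tested genes.

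**Figure D2:**
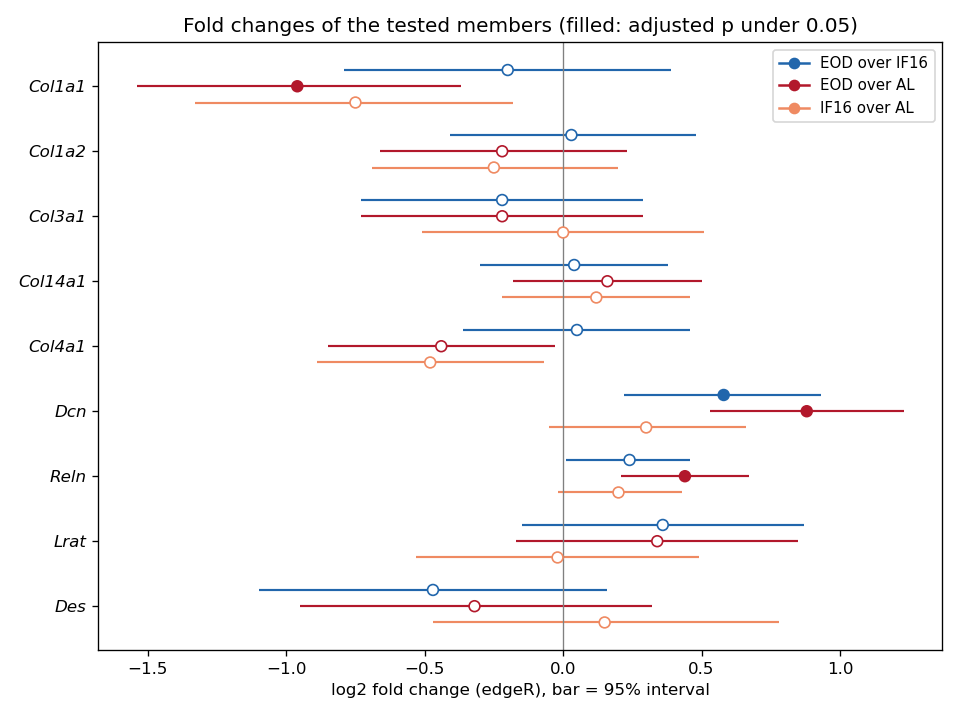
log2 fold change of the 9 tested members (horizontal axis) for EOD over IF16, EOD over AL and IF16 over AL, with 95% intervals from edgeR's fit. Filled points passed an adjusted p of 0.05: Dcn at 0.58 for EOD over IF16, and Dcn at 0.88, Reln at 0.44 and Col1a1 at -0.96 for EOD over AL.

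Among the fibrillar collagens Col1a1 fell in EOD, and all of them were uneven within AL. Col1a1, on chromosome 11 from 94936224 to 94953042 (mm10, plus strand), encodes the alpha 1 chain of type I collagen, the main fibril of scar tissue. It stood at 2.39, 3.47, 2.31, 3.94 and 2.98 CPM in EOD, at 3.51, 3.27, 4.11, 3.68 and 2.81 CPM in IF16, and at 7.64, 8.12, 7.64, 3.46 and 2.43 CPM in AL. The first 3 AL libraries lay above every fasted library, whereas AL replicates 4 and 5 lay within the range of the fasted ones, so the groups overlapped. Col1a1 averaged 3.02 ± 0.70 CPM in EOD and 5.86 ± 2.69 CPM in AL (SD, n = 5 each) and was 1.94-fold lower in EOD (log2 fold change -0.96, SE 0.28, edgeR adjusted p = 0.0132). In IF16 it averaged 3.48 ± 0.483 CPM, and the difference from AL, -0.75 on the log2 scale with a 95% interval of -1.33 to -0.18, missed the threshold (edgeR adjusted p = 0.143). EOD and IF16 differed by -0.20 (edgeR adjusted p = 0.665; 95% interval -0.79 to 0.39).

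When AL replicates 4 and 5 were left out, Col1a1 fell in both fasting groups. It was then 2.53-fold lower in EOD than in AL (log2 fold change -1.34, edgeR adjusted p = 7.69e-05) and 2.23-fold lower in IF16 than in AL (-1.16, edgeR adjusted p = 0.00262). Without AL replicate 5 alone, the IF16 difference was -0.96 (edgeR adjusted p = 0.0293). AL replicates 4 and 5 were the lowest AL libraries for Col1a1, so leaving them out had to widen the fall. No conclusion is drawn from these p-values.

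Col1a2, which encodes the partner alpha 2 chain of type I collagen, stood at 6.5, 9.15, 8.35, 10.4 and 8.31 CPM in EOD, at 7.9, 9.1, 8.61, 9.18 and 7.02 CPM in IF16, and at 11.9, 13.4, 12.3, 6.84 and 5.17 CPM in AL. Again AL replicates 1 to 3 lay above every fasted library, and AL replicate 5 was the lowest of all 15. The fitted differences were -0.22 for EOD over AL, 0.03 for EOD over IF16 and -0.25 for IF16 over AL, and none was called (edgeR adjusted p = 0.454, 0.938 and 0.58). Leaving out AL replicates 4 and 5, Col1a2 fell in both fasting groups, by 0.52 on the log2 scale in EOD (edgeR adjusted p = 0.0122) and by 0.58 in IF16 (edgeR adjusted p = 0.0436). The libraries left out were again the lowest of AL, so no conclusion is drawn from these p-values either.

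Col3a1, the chain of type III collagen, stood at 8.14, 16.9, 13.1, 18.4 and 11.9 CPM in EOD, at 16.7, 14.7, 17.2, 17.3 and 13.7 CPM in IF16, and at 19.6, 20.1, 20.7, 10.5 and 8.71 CPM in AL. EOD replicate 1 and AL replicates 4 and 5 were the lowest libraries, and the 3 groups overlapped. The differences were -0.22 for EOD over AL, -0.22 for EOD over IF16 and 0 for IF16 over AL, none called (edgeR adjusted p = 0.502, 0.574 and 0.997). Without AL replicates 4 and 5, Col3a1 fell in EOD relative to AL by 0.53 (edgeR adjusted p = 0.0447). They were the lowest AL libraries for Col3a1 as well, so no conclusion is drawn from this p-value. With them left out 5 of 9 members were called between EOD and AL and 2 of 9 between IF16 and AL. The shares of all 14205 genes then tested that were called were 30.3% (16.4% higher, 13.9% lower) for EOD over AL and 2.59% (0.859% higher, 1.73% lower) for IF16 over AL.

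The balance of the 2 type I chains within a library does not depend on library size, and it differed between the groups. The log2 ratio of Col1a1 to Col1a2, on counts per kilobase, was -1.59, -1.55, -2.0, -1.55 and -1.63 in EOD, -1.32, -1.63, -1.22, -1.47 and -1.47 in IF16, and -0.79, -0.87, -0.83, -1.13 and -1.24 in AL. Every EOD library lay below every AL library, AL replicates 4 and 5 included, and IF16 overlapped both groups. The mean ratio was -1.67 ± 0.19 in EOD and -0.97 ± 0.20 in AL (SD, n = 5 each), a difference of -0.69 (two-sided exact permutation p = 0.00794, the smallest that 5 against 5 allow; adjusted p over 9 ratio tests = 0.0238). For IF16, at -1.42 ± 0.16, the difference from AL was -0.45 (two-sided exact permutation p = 0.0159, adjusted p = 0.0357), but it lost the call when any 1 of IF16 replicates 1, 2, 4 or 5 or AL replicates 1 to 4 was left out, with adjusted p up to 0.0714. EOD and IF16 differed by -0.24 (two-sided exact permutation p = 0.0317, adjusted p = 0.0571), which missed the threshold.

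**Figure D3:**
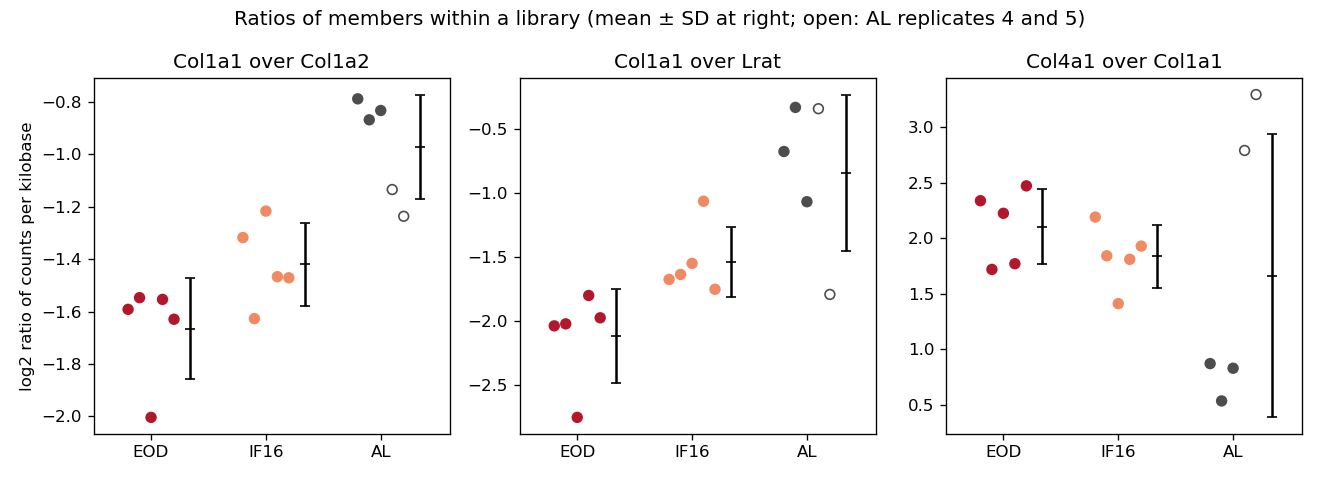
log2 ratio of counts per kilobase within each library for Col1a1 over Col1a2, Col1a1 over Lrat and Col4a1 over Col1a1, with 1 point per library and the group mean ± SD (n = 5). All 5 EOD libraries lie below all 5 AL libraries in the first and second panels, and AL replicates 4 and 5 (open) lie above the other AL libraries in the third.

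Type I collagen was also set against Lrat, the vitamin A storage gene. The log2 ratio of Col1a1 to Lrat was -2.04, -2.02, -2.76, -1.80 and -1.97 in EOD, -1.67, -1.64, -1.55, -1.06 and -1.75 in IF16, and -0.67, -0.33, -1.07, -0.34 and -1.79 in AL. The EOD libraries lay below all others, closely followed by IF16 replicate 5 and AL replicate 5. EOD was lower than AL by a difference of -1.28 and lower than IF16 by a difference of -0.58 (two-sided exact permutation p = 0.00794 for each, adjusted p = 0.0238). IF16 and AL differed by -0.70, which missed the threshold (two-sided exact permutation p = 0.0873, adjusted p = 0.131).

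Col14a1, a fibril-associated collagen, stood at 25.2, 32.3, 31.1, 38.9 and 32.3 CPM in EOD, at 40, 32.2, 30.7, 25.2 and 27.4 CPM in IF16, and at 36.4, 31.8, 31.8, 21.8 and 21.2 CPM in AL. The groups overlapped throughout, and AL replicates 4 and 5 were again the lowest. Its log2 fold changes were 0.16 for EOD over AL, 0.04 for EOD over IF16 and 0.12 for IF16 over AL, with edgeR adjusted p of 0.467, 0.896 and 0.753. Their 95% intervals were -0.18 to 0.50, -0.30 to 0.38 and -0.22 to 0.46. Its differences from AL were -0.03 for EOD and -0.09 for IF16 without AL replicates 4 and 5.

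Col4a1 was the member that went the other way in the AL libraries that stood apart. It encodes the alpha 1 chain of type IV collagen, the network former of basement membranes, and stood at 13.5, 12.8, 12, 15 and 18.4 CPM in EOD, at 17.9, 13.1, 12.2, 14.4 and 11.9 CPM in IF16, and at 15.6, 13.1, 15.1, 26.7 and 26.6 CPM in AL. AL replicates 4 and 5 were the highest of all 15 libraries, and AL replicates 1 to 3 lay within the range of the fasted ones. The difference was -0.44 for EOD over AL (edgeR adjusted p = 0.0897) and -0.48 for IF16 over AL (edgeR adjusted p = 0.188), and neither passed, although the first passed without AL replicate 2 (-0.55, edgeR adjusted p = 0.0341). These differences were 0.00 and -0.07 without AL replicates 4 and 5. The log2 ratio of Col4a1 to Col1a1 averaged 2.11 ± 0.34 in EOD, 1.84 ± 0.28 in IF16 and 1.66 ± 1.28 in AL (SD, n = 5 each). In AL it was 0.87, 0.54 and 0.83 in replicates 1 to 3, against 2.79 and 3.29 in replicates 4 and 5. With all 5 AL libraries it did not pass (two-sided exact permutation, adjusted p = 0.545 for EOD and 0.81 for IF16), and without those 2 it was higher by 1.36 in EOD and by 1.09 in IF16 (adjusted p = 0.0459 for each). The smallest permutation p that 3 against 5 allow is 0.0357. Because the 2 libraries left out had the highest AL ratios, no conclusion is drawn from these p-values. Col4a1 shares its locus with Col4a2 on the opposite strand, with 7688 counts for Col4a1 and 5906 for Col4a2 over all libraries, and whether the counting used strand is not known here.

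Dcn was the member whose EOD libraries stood clear of both other groups. On chromosome 10 from 97479500 to 97518162 (mm10, plus strand), it stood at 122.0, 168.2, 152.6, 188.8 and 136.4 CPM in EOD, at 121.5, 112.8, 112.7, 81.58 and 86.19 CPM in IF16, and at 103.5, 67.44, 110.5, 68.47 and 67.28 CPM in AL. Every EOD library lay above every IF16 and AL library, although EOD replicate 1 was only just above IF16 replicate 1. Dcn averaged 154 ± 26.2 CPM in EOD and 83.4 ± 21.7 CPM in AL (SD, n = 5 each) and was 1.84-fold higher in EOD (log2 fold change 0.88, SE 0.17, edgeR adjusted p = 0.000786). It was 1 of 9 members whose EOD and AL libraries did not overlap, as was the case for 18.6% of all tested genes. Against IF16, at 103 ± 17.8 CPM, it was 1.49-fold higher in EOD (0.58, SE 0.17, edgeR adjusted p = 0.0263), again 1 of 9 without overlap, with 10.9% of all tested genes. That call was lost when EOD replicate 2 or 4, or IF16 replicate 4 or 5, was left out, with edgeR adjusted p of 0.0576 to 0.074. Between IF16 and AL the difference was 0.30 and was not called (edgeR adjusted p = 0.354; 95% interval -0.05 to 0.66). Dcn was also higher in EOD than in AL without AL replicates 4 and 5, by 0.74 (edgeR adjusted p = 0.00752).

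Among the stellate cell genes, Reln rose in EOD relative to AL. Reelin, its product, is a secreted glycoprotein best known from neuronal layering in the brain, and in the liver its RNA marks stellate cells. Reln lies on chromosome 5 from 21884454 to 22344702 (mm10, minus strand) and stood at 24.1, 27.2, 27.6, 28.2 and 28.8 CPM in EOD, at 26.0, 22.7, 23.6, 22.4 and 20.8 CPM in IF16, and at 20, 21.9, 24.5, 17.4 and 16.3 CPM in AL. Its levels varied little within a group, and EOD replicate 1 alone among the EOD libraries fell within the ranges of the others. The means were 27.2 ± 1.85 CPM in EOD, 23.1 ± 1.88 CPM in IF16 and 20 ± 3.31 CPM in AL (SD, n = 5 each). EOD was 1.36-fold above AL (log2 fold change 0.44, SE 0.11, edgeR adjusted p = 0.00496), and by 0.32 without AL replicates 4 and 5 (edgeR adjusted p = 0.0331). The differences of 0.24 for EOD over IF16 and 0.20 for IF16 over AL were not called (edgeR adjusted p = 0.146 and 0.331).

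Lrat stood at 8.87, 12.7, 14.1, 12.4 and 10.6 CPM in EOD, at 10.1, 9.16, 10.8, 6.94 and 8.53 CPM in IF16, and at 11, 9.19, 14.4, 3.94 and 7.60 CPM in AL. AL replicate 4 was the lowest and AL replicate 3 the highest of all 15 libraries, so AL spanned both other groups. Means were 11.7 ± 2.03 CPM in EOD, 9.12 ± 1.51 CPM in IF16 and 9.23 ± 3.90 CPM in AL (SD, n = 5 each). The differences of 0.34 for EOD over AL, 0.36 for EOD over IF16 and -0.02 for IF16 over AL were not called (edgeR adjusted p = 0.287, 0.328 and 0.98). The first was 0.05 without AL replicates 4 and 5.

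Des, which encodes the intermediate filament desmin of stellate and muscle cells, stood at 3.07, 4.57, 3.70, 4.38 and 4.61 CPM in EOD, at 3.06, 4.34, 4.54, 5.04 and 11.1 CPM in IF16, and at 5.32, 6.87, 6.43, 3.49 and 3.17 CPM in AL. IF16 replicate 5 was far above every other library. The contractile genes were uneven in that library: Tpm1, at 30.3 CPM, and Tpm2, at 23.7 CPM, were the highest of all 15 libraries, Acta2, at 1.46 CPM, was the lowest of IF16, and Myh11 stood at 2.08 CPM. The 7 smooth muscle markers summed to 14.4 CPM there, against 12.4 to 27.3 CPM over IF16. The part of muscle RNA in the Des value was not tested. No Des difference was called: -0.32 for EOD over AL, -0.47 for EOD over IF16 and 0.15 for IF16 over AL (edgeR adjusted p = 0.434, 0.299 and 0.836).

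Timp1, which inhibits matrix metalloproteinases and rises in fibrotic liver, was near the floor. It had 7, 8, 1, 10 and 3 counts in EOD, 0, 6, 3, 7 and 4 in IF16, and 3, 3, 5, 5 and 6 in AL. The libraries overlapped, and with so few counts a difference was not detectable at this depth. Without the filter on low counts its log2 fold changes were 0.26 for EOD over AL (SE 0.60), 0.57 for EOD over IF16 (SE 0.60) and -0.30 for IF16 over AL (SE 0.62), with edgeR adjusted p of 0.819, 0.61 and 0.878. Timp1 also overlaps Syn1 on the opposite strand, which had 98 counts against 71 for Timp1 over all libraries.

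**Figure D4:**
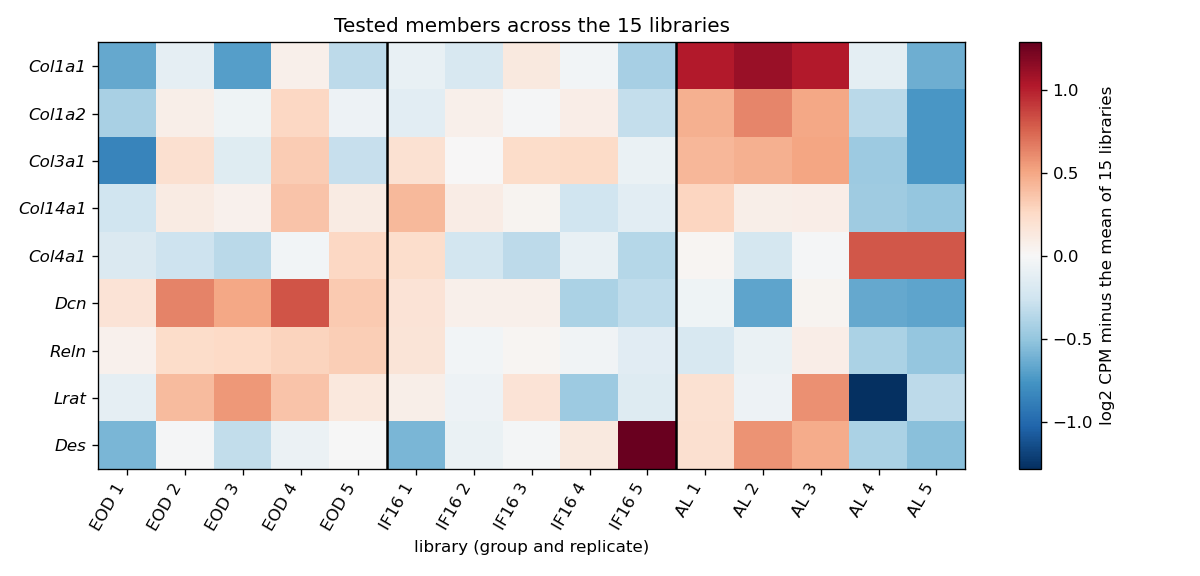
log2 CPM of the 9 tested members (rows) in each of the 15 libraries (columns, EOD, IF16 then AL), centred on the gene's mean over the libraries. AL replicates 1 to 3 are high for Col1a1, Col1a2 and Col3a1, AL replicates 4 and 5 are low for these and high for Col4a1, and Des is high in IF16 replicate 5.

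Some libraries were low or high for several members. AL replicates 4 and 5 both lay below AL replicates 1 to 3 for 7 of the 9 tested members, and above them for Col4a1. The share of all tested genes split in this way was not counted, so 7 of 9 is no result about the members. The mean of AL replicates 4 and 5 divided by that of AL replicates 1 to 3 was 0.377 for Col1a1, 0.48 for Col1a2, 0.478 for Col3a1, 0.5 for Lrat, 0.537 for Des, 0.646 for Col14a1, 0.723 for Dcn, 0.763 for Reln and 1.82 for Col4a1. Among the fasted libraries, EOD replicate 1 was the lowest of its group for 7 of 9 members and EOD replicate 4 the highest for 5, while IF16 replicate 5 was the lowest for 5 and IF16 replicate 1 the highest for 4. The share of all tested genes ranked in these ways was not counted either, so these ranks are no result about the members.

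Markers of some other cells of the lobe were also uneven within AL. The 7 vascular smooth muscle markers summed to 11.2 to 23.5 CPM in EOD, 12.4 to 27.3 CPM in IF16, and 37.4, 26.6, 57.8, 22.7 and 19.5 CPM in AL. The 12 portal fibroblast markers summed to 12.4 to 20.2 CPM in EOD, 11.9 to 16.9 CPM in IF16, and 23.4, 17.7, 30.7, 7.15 and 7.53 CPM in AL. AL replicates 1 and 3 were thus the highest for both lists, as they were among the highest for Col1a1. AL replicate 2, the highest library for Col1a1, lay within the range of the fasted libraries for both lists. The 6 adipocyte markers summed to 7.49 to 12.7 CPM in EOD, 6.78 to 9.4 CPM in IF16, and 21.8, 14.6, 24.9, 4.04 and 4.36 CPM in AL. In AL replicates 1 to 3 Cfd stood at 8.64, 7.49 and 7.31 CPM, Fabp4 at 10.6, 6.8 and 12.8 CPM, and Retn at 0.401, 0.345 and 0.881 CPM. Adipoq stood at 1.06, 0 and 2.35 CPM in these libraries, Plin1 at 0.458, 0 and 0.816 CPM, and Lep at 0.687, 0 and 0.685 CPM. In the fasted libraries Cfd stood at 0.23 to 1.03 CPM, Fabp4 at 6.38 to 11.2 CPM and Retn at 0 to 0.135 CPM. Adipoq reached 0.378 CPM there and Plin1 0.178 CPM, and Lep stayed at 0 CPM. Fabp4 in AL replicates 1 and 2 thus lay within the range of the fasted libraries. The part of smooth muscle, portal fibroblast or adipose RNA in the collagen differences was not tested. Hepatocyte markers, of which there were 8, summed to 82700 to 111000 CPM in EOD, 100000 to 129000 CPM in IF16 and 82600 to 103000 CPM in AL, and none of them was at 0 in a whole group. Of 12 Kupffer cell markers, 1 rose between EOD and AL, where 17.6% of all tested genes were called higher. In the other comparisons 0 were called. With AL replicates 4 and 5 left out, 2 of 12 were higher in EOD than in AL, beside 16.4% of all genes then tested. Of 9 tested portal fibroblast markers, 0 were called in any comparison with all AL libraries. The shares of all tested genes called were 35.2% for EOD over AL, 16.1% for EOD over IF16 and 3.5% for IF16 over AL. Once AL replicates 4 and 5 were left out, 4 of 10 portal fibroblast markers were lower in EOD than in AL, beside 13.9% of all genes then tested.

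Of 20 other stellate cell markers tested, 10 rose and 1 fell in EOD relative to AL, and 9 were not called, with a median log2 fold change of 0.49. Of all tested genes, 17.6% were called higher and 17.6% lower in that comparison, and no test of the list itself was made. Colec11, a collectin, was higher in EOD at 36.3 ± 4.41 CPM, against 21.9 ± 3.85 CPM in AL (log2 fold change 0.73, edgeR adjusted p = 0.000259). Hgf, the hepatocyte growth factor, was higher at 2.87 ± 0.655 CPM in EOD, against 1.01 ± 0.496 CPM in AL (1.51, edgeR adjusted p = 0.00166). Bambi, a pseudoreceptor that dampens TGF-beta signalling, was higher at 3.99 ± 0.911 CPM in EOD, against 1.85 ± 0.624 CPM in AL (1.1, edgeR adjusted p = 0.00271). The 1 that fell was Steap4, a metalloreductase (-1.82, edgeR adjusted p = 0.0368), chosen for mention after its value was seen. Steap4 stood at 490 and 251 CPM in AL replicates 4 and 5, against 33.4 to 55.8 CPM in AL replicates 1 to 3, and without those libraries its difference was 0.10 (edgeR adjusted p = 0.755). Between EOD and IF16 1 of 20 rose, Pdgfra, a PDGF receptor (0.53, edgeR adjusted p = 0.0406), and between IF16 and AL 1 rose, Cxcl12, a chemokine (0.46, edgeR adjusted p = 0.0457; 0.50 and 0.0899 without AL replicates 4 and 5). With AL replicates 4 and 5 left out, 8 of 21 markers were higher and 0 lower between EOD and AL, and 0 were called between IF16 and AL. Of all genes then tested, 16.4% were called higher between EOD and AL and 0.859% between IF16 and AL. Of the sinusoidal endothelial markers, 12 of 16 rose between EOD and AL. Between IF16 and AL 7 of 16 rose, unlike the 1 of 20 stellate cell markers, where 1.4% of all tested genes were called higher. They had sums of 369 to 431 CPM in EOD, 361 to 438 CPM in IF16 and 176 to 310 CPM in AL. The lowest of these sums was that of AL replicate 5, and with AL replicates 4 and 5 left out 10 of 16 rose between EOD and AL and 5 of 16 between IF16 and AL, with medians of 0.52 and 0.38, against 0.80 and 0.60 with them.

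Of 13 genes of the activated, contractile state, 6 fell, 1 rose and 6 were not called between EOD and AL, with a median of -0.89, beside 17.6% of all tested genes called lower. Lgals1, galectin 1, fell to 29.1 ± 5.4 CPM in EOD, against 77.1 ± 34.4 CPM in AL (-1.41, edgeR adjusted p = 0.00189). Tagln, an actin-binding protein of smooth muscle, fell to 7.53 ± 2.76 CPM in EOD, against 13.9 ± 3.67 CPM in AL (-0.89, edgeR adjusted p = 0.00942). S100a6, a calcium-binding protein, was lower at 1.94 ± 0.536 CPM in EOD, against 3.25 ± 0.637 CPM in AL (-0.74, edgeR adjusted p = 0.0126). With AL replicates 4 and 5 left out, 10 of 13 fell and 0 rose, where 13.9% of all genes then tested were called lower and 16.4% higher. Of the 7 vascular smooth muscle markers 3 fell with all AL libraries and 6 without AL replicates 4 and 5, and Acta2, Actg2, Cnn1, Myh11 and Tagln stand in both lists. Ctgf, a matricellular protein, was the 1 that rose over AL (0.92, edgeR adjusted p = 0.0185; 0.67 and 0.0721 without AL replicates 4 and 5), and it was higher in EOD than in IF16 (0.96, edgeR adjusted p = 0.0297). It was the 1 of 13 called there, and 0 of 13 were called between IF16 and AL by edgeR. Even so, 11 of 13 had a negative log2 fold change for IF16 over AL, with a median of -0.68. Once AL replicates 4 and 5 were left out, 2 of 13 fell in IF16 (median -0.83), beside 1.73% of all genes then tested. Of the smooth muscle markers 1 of 7 then fell, and 0 with all AL libraries. The libraries left out had the lowest AL sums of both lists, so no conclusion is drawn from the counts without them.

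Among 17 other collagen chains, 1 rose and 3 fell between EOD and AL, the third being Col5a3 (-1.01, edgeR adjusted p = 0.0421; 0.0888 without AL replicates 4 and 5), named after its value was seen. Col15a1, a chain of the basement membrane zone, was lower at 0.622 ± 0.346 CPM in EOD and at 1.48 ± 0.544 CPM in IF16, against 5.68 ± 1.85 CPM in AL (-3.19 and -1.93, edgeR adjusted p = 6.42e-06 and 0.00331), and it was lower in EOD than in IF16 (-1.26, edgeR adjusted p = 0.0246). Col13a1, a transmembrane collagen, was higher at 5.1 ± 1.37 CPM in EOD and 4.5 ± 0.681 CPM in IF16, against 2.34 ± 0.91 CPM in AL (1.12 and 0.94, edgeR adjusted p = 0.0018 and 0.0366). The IF16 difference in Col13a1 was 0.64 and was not called without AL replicates 4 and 5 (edgeR adjusted p = 0.136). Col27a1, a fibrillar collagen, was lower in EOD than in AL (-1.69, edgeR adjusted p = 0.00206) and than in IF16 (-2.41, edgeR adjusted p = 0.000635). Between EOD and IF16 0 rose and 2 fell, and between IF16 and AL 1 rose and 1 fell. Of all tested genes, 35.2% were called between EOD and AL, 16.1% between EOD and IF16 and 3.5% between IF16 and AL. No test of the list of chains was made.

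The machinery that makes and holds the matrix changed in single genes, and the counts of its lists between EOD and AL stand beside 17.6% of all tested genes called in each direction. Of 25 genes of collagen processing and crosslinking, 4 rose and 2 fell between EOD and AL: Mia3, which helps load procollagen for export (0.47, edgeR adjusted p = 0.00395), and Lepre1, a prolyl 3-hydroxylase (0.43, edgeR adjusted p = 0.00698), were higher and Colgalt2, a collagen galactosyltransferase, lower (-1.36, edgeR adjusted p = 0.00394). The others, named after their values were seen, were Bmp1, a procollagen protease (0.42), and Colgalt1, another galactosyltransferase (0.92), both higher, and Pcolce, an enhancer of procollagen cleavage, lower (-0.58), with edgeR adjusted p of 0.0171, 0.0164 and 0.0101. Between EOD and IF16 1 rose, Colgalt1 (0.96, edgeR adjusted p = 0.0256), and 1 fell, Pcolce (-0.48, edgeR adjusted p = 0.0495). Of 16 basement membrane genes, 0 rose and 4 fell between EOD and AL, among them the nidogen Nid2 (-0.64, edgeR adjusted p = 0.0102) and the laminin chains Lama3 (-0.83, 0.0128) and Lamb3 (-0.64, 0.0171), and Lama3 was also lower in EOD than in IF16 (-1.07, edgeR adjusted p = 0.00658). The fourth was Agrn, agrin (-0.47, edgeR adjusted p = 0.0487), named after its value was seen. With AL replicates 4 and 5 left out 2 of 16 fell, and neither Lama3 (-0.45, edgeR adjusted p = 0.18) nor Agrn (-0.50, edgeR adjusted p = 0.0767) was called against AL. Of 15 small proteoglycans and interstitial glycoproteins, 5 rose and 2 fell between EOD and AL: Lum, which encodes the decorin relative lumican, was higher at 6.5 ± 2.01 CPM in EOD, against 2.93 ± 1.17 CPM in AL (1.14, edgeR adjusted p = 0.00358), as was Tgfbi, a collagen-binding matrix protein (0.53, edgeR adjusted p = 0.00394). Thbs1, thrombospondin 1, was lower in both EOD (-1.37, edgeR adjusted p = 0.00334) and IF16 (-1.44, edgeR adjusted p = 0.0185) than in AL, and the IF16 call was lost without AL replicates 4 and 5 (-1.04, edgeR adjusted p = 0.0912). The other 4, named after their values were seen, were Thbs2 (0.99), Postn (0.80) and Sparcl1 (0.98), higher in EOD, and Podn (-0.73), lower, with edgeR adjusted p of 0.00706, 0.00403, 0.00562 and 0.0135. Sparcl1 was higher by 0.63 without AL replicates 4 and 5 (edgeR adjusted p = 0.0174). Among the matrix proteases, the membrane-type metalloproteinase Mmp15 fell in EOD relative to AL (-0.90, edgeR adjusted p = 8.13e-05). Mmp15 was lower in EOD than in IF16 as well (-0.60, edgeR adjusted p = 0.00574).

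Of 23 genes of TGF-beta and PDGF signalling, 4 rose and 2 fell between EOD and AL, where 35.2% of all tested genes were called. Pdgfc, a PDGF ligand, was higher at 4.4 ± 1.04 CPM in EOD, against 2.09 ± 0.385 CPM in IF16 and 1.1 ± 0.318 CPM in AL, a difference of 1.99 from AL (edgeR adjusted p = 6.98e-06) and of 1.07 from IF16 (edgeR adjusted p = 0.00296), and it was higher in IF16 than in AL (0.92, edgeR adjusted p = 0.0304; 1.06 and 0.052 without AL replicates 4 and 5). Smad4, the shared transducer of TGF-beta signals, was higher in EOD than in AL (0.70, edgeR adjusted p = 0.000675), and Pdgfa, another ligand, was lower (-0.81, edgeR adjusted p = 0.000548). The other 3, named after their values were seen, were the ligand Pdgfd (1.1), the Smad corepressor Skil (0.79) and the receptor Tgfbr2 (-0.57), with edgeR adjusted p of 0.00458, 0.0145 and 0.0157. Between EOD and IF16 4 rose and 1 fell, with Skil (0.91, edgeR adjusted p = 0.014) and Smad4 (0.45, edgeR adjusted p = 0.0244) higher in EOD. Smad2, a TGF-beta signal transducer (0.58, edgeR adjusted p = 0.0457), and Tgfbr2 (-0.55, edgeR adjusted p = 0.037) were the others, named after their values were seen. Without AL replicates 4 and 5 in the fit, Tgfbr2 was not called between EOD and IF16 (-0.53, edgeR adjusted p = 0.0505). Of 14 retinoid handling genes, 3 rose and 2 fell between EOD and AL, again beside 35.2% of all tested genes. Rdh11, a retinal reductase, was lower at 15.1 ± 2.07 CPM in EOD and 30.1 ± 5.18 CPM in IF16, against 57.1 ± 6.85 CPM in AL (-1.92 and -0.92, edgeR adjusted p = 5.79e-08 and 0.000886), and EOD was below IF16 (-1, edgeR adjusted p = 0.000125). Rbp4, the plasma retinol carrier made by hepatocytes, was higher in EOD (0.73, edgeR adjusted p = 0.000137) and IF16 (0.43, edgeR adjusted p = 0.0412; 0.46 and 0.0924 without AL replicates 4 and 5) than in AL. Cyp26b1, which breaks down retinoic acid, was higher in EOD than in AL (2.03, edgeR adjusted p = 0.00523) and than in IF16 (2.03, edgeR adjusted p = 0.0118). Dhrs3, a retinal reductase (0.38), and Rara, a retinoic acid receptor (-0.49), named after their values were seen, made up the rest, with edgeR adjusted p of 0.017 and 0.0223; Dhrs3 was not called without AL replicates 4 and 5 (0.32, edgeR adjusted p = 0.0721). In all, of 159 tested pathway genes outside the members, 52 (32.7%) were called between EOD and AL, 15 (9.43%) between EOD and IF16 and 8 (5.03%) between IF16 and AL. The shares of all tested genes were 35.2%, 16.1% and 3.5%, so these counts are near or below the background in the EOD comparisons and are no result about the pathway.

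Likeness over the 15 libraries was measured as the root mean squared difference in centred log2 CPM. The genes most like Col1a1 were Rpia, Anxa2 and Pnldc1, each at 0.29, where the median over 11149 genes was 0.64. The genes most like Lrat were Gnpda2 at 0.26, Islr at 0.27 and Tcf21 at 0.27, where the median was 0.53. As these genes were picked for the smallest differences, their place below the median was fixed in advance. A gene with the same level in every library would lie at 0.57 from Col1a1 and at 0.45 from Lrat.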

How the data were processed

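The authors deposited raw counts per Ensembl gene, 1 column per library, and FPKM values of the same libraries. The submitters' processing notes name mm10, STAR 2.5, HTSeq 0.6.1 and DESeq2, with no role or order. Whether strand was used in counting is not given. Groups follow the labels. Counts were filtered with filterByExpr (minimum count 10), TMM-scaled and tested with edgeR 4.0.16 (R 4.3.3; robust quasi-likelihood F test over all 15 libraries, no covariate), with Benjamini-Hochberg adjustment over 13837 genes and a threshold of 0.05. Intervals are 95%. Ratios between members used counts per kilobase and a two-sided exact permutation test (scipy 1.17.1), adjusted over 9 tests. The deposited FPKM served to order levels and, with limma 3.58.1, as an alternative; DESeq2 1.42.0 was another. The common biological coefficient of variation was 0.211, and within-group pairs of libraries differed by more than sampling noise (chi-square per degree of freedom 24.9 to 219 over 30 pairs). The test was tried on simulated counts with 200 changed genes.

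Members, lists, ratios and the libraries left out were chosen with earlier results of these data known. Every member is described; from each pathway list up to 3 called genes with the smallest p are named in each comparison, with others marked as named after their values were seen. Genes most like Col1a1 and Lrat had a mean of at least 1 CPM; Timp1, which was not tested, was not compared. One result of the protease list is not reported here.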

Additional observations from a re-analysis of the deposited data

Results flagged for a closer look

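Des in IF16 replicate 5 stood at 11.1 CPM, far from the other IF16 libraries, whose highest was 5.04 CPM. The gap was 0.754 of the group's whole range, above Dixon's 95% critical value of 0.71 for 5 samples. It was the 1 library marked in 27 groups of member and regimen examined, where chance marks about 1 group in 20.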

How the results depend on the processing

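Depth limits Timp1, at 0 to 10 counts a library. Members called numbered 2 (IF16 over AL) and 5 (EOD over AL) without AL replicates 4 and 5, against 0 and 3 with them, and 0 for EOD over IF16 under limma on log2(FPKM + 1) with no filter, against 1. Leaving out 1 library gave 3 to 4 (EOD over AL), 0 to 1 (EOD over IF16) and 0 to 1 (IF16 over AL). Under limma with no filter Col1a1 in EOD over AL lost its call (edgeR adjusted p = 0.0132, limma adjusted p = 0.0796). The other pathway genes called in IF16 over AL were 14 with DESeq2, 5 with limma on log2(FPKM + 1) and 3 with it unfiltered, against 8; in EOD over IF16 they were 23 with those groups alone and 9 with limma unfiltered, against 15. Leave-one-out gave 43 to 55, 7 to 18 and 3 to 10 in EOD over AL, EOD over IF16 and IF16 over AL. These pathway alternatives were chosen after seeing the data.

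For IF16 over AL, small differences changed sign. Col3a1 was 0.00 with no filter on counts, 0.03, 0.07 and 0.03 with limma (pseudocounts 1, 0.1, and 1 unfiltered), and Lrat 0.02, 0.07 and 0.02. Without AL replicates 4 and 5, Col14a1 was -0.09 and Des -0.13, and Col14a1 in EOD over AL was -0.03. Leaving out 1 library gave -0.17 to 0.10 for Col3a1, -0.21 to 0.19 for Lrat and -0.25 to 0.31 for Des in IF16 over AL, and -0.04 to 0.12 for Col1a2, -0.03 to 0.17 for Col4a1 and -0.03 to 0.17 for Col14a1 in EOD over IF16. The log2 ratio of Col4a1 to Col1a1 was higher by 1.36 (EOD) and 1.09 (IF16) without AL replicates 4 and 5, against 0.44 and 0.17. Leave-one-out ranges (EOD over AL, EOD over IF16, IF16 over AL) were -0.76 to -0.61, -0.30 to -0.16 and -0.51 to -0.40 for Col1a1 over Col1a2, -1.52 to -1.12, -0.66 to -0.42 and -0.93 to -0.57 for Col1a1 over Lrat, and 0.16 to 0.85, 0.16 to 0.36 and -0.11 to 0.58 for Col4a1 over Col1a1. The causes were not tested.

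Replicate numbers did not pair the libraries: correlations of same-numbered libraries were -0.13 to 0.22, with 5 of 15 over 0.1 and 3 best with their own number. With the replicate block 3, 1 and 0 members were called in EOD over AL, EOD over IF16 and IF16 over AL, and 53, 17 and 7 other pathway genes; Col3a1 and Lrat in IF16 over AL were both 0.04. The exact sign-flip permutation test of 5 pairs cannot go below p = 0.0625, so the block ended the ratio calls: Col1a1 over Col1a2 (-0.69 and -0.45) and Col1a1 over Lrat (-1.28 and -0.58) each had adjusted p = 0.141.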
